A study of Mus musculus with 8 samples.

Results

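The genes described here are 10 genes of calcium storage, uptake and buffering in skeletal muscle, chosen by their symbols among the 19465 genes of the deposited tables: Atp2a1, Atp2a2, Casq1, Casq2, Trdn, Jph1, Jph2, Sln, Pvalb and Sypl2. They were followed in spatial transcriptomics of the embryonic mouse diaphragm, the respiratory muscle between chest and abdomen. Each of 8 sections, 5 µm thick and cut en face from fixed, paraffin-embedded tissue, lay on a slide with capture spots of 55 µm spaced 100 µm apart, and each spot gave counts of unique molecular identifiers (UMIs) per gene. The sections fall into 5 groups: 3 controls and 1 CaV1.1 -/- section at E14.5, and 2 controls, 1 CaV1.1 -/- section and 1 bCat cKO section at E18.5. CaV1.1 -/- (dysgenic) embryos lack the voltage-gated calcium channel of skeletal muscle in the whole body. In bCat cKO embryos β-catenin was deleted from floxed alleles by HSA-Cre, which is active in skeletal muscle, so other cells of the section keep the gene. Controls kept at least 1 working allele of each gene and need not have been wild type, and part of the crosses that gave the mutants carried alleles of both. Sex and litter were not given in the sources used here. Each mutant group is 1 section, so its values carry no replicate error of their own, and tests of a mutant assume that it varies like the controls.

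Skeletal muscle contracts when calcium leaves the sarcoplasmic reticulum through the ryanodine receptor, which the CaV1.1 channel in the surface membrane opens, and relaxes when calcium is pumped back. SERCA pumps (Atp2a1, the fast-fiber form, and Atp2a2, the slow-fiber and cardiac form) do the pumping, and the small membrane peptide sarcolipin (Sln) restrains them. Inside the store, calsequestrins (Casq1, and Casq2, which is also the cardiac form) bind calcium and are tied to the release channel by triadin (Trdn). Junctophilins (Jph1 and Jph2) hold the store membrane against the surface membrane, Sypl2 encodes mitsugumin 29 of the same junction, and parvalbumin (Pvalb) is a soluble calcium buffer of fast fibers.

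The sequences printed here are the start regions of Atp2a1, Casq1, Sypl2 and Casq2, and the coding sequences of a pair of small pump-binding peptides. Those start regions belong to members that rose between stages relative to all genes. RefSeq (GRCm38.p6) gave start regions for 6 of the 10 members, as 8 windows of 300 bases, from 250 before to 50 after a start. Capitals mark E-boxes (CANNTG, the letters read by myogenic bHLH factors, which are the same on both strands). At least 1 E-box stands in 7 of the 8 windows and CAGCTG, an E-box that overlaps the first motif by definition, in 5 of them, of which the pair of Jph2 windows overlap and hold 1 and the same CAGCTG. The window without an E-box belongs to Pvalb and is not printed. Of all 32851 promoter windows of the same length, 72.3% hold CANNTG and 16.3% hold CAGCTG, and a match is a description of letters and not of binding. Atp2a1 lies at chr7:126445858-126463108 on the minus strand, Casq1 at chr1:172209894-172219868 on the minus strand, Sypl2 at chr3:108211472-108226648 on the minus strand and Casq2 at chr3:102086415-102146514 on the plus strand (GRCm38), and each window below spans the start and first exon bases of its gene.
Atp2a1 start region, chr7:126463024-126463323, minus strand: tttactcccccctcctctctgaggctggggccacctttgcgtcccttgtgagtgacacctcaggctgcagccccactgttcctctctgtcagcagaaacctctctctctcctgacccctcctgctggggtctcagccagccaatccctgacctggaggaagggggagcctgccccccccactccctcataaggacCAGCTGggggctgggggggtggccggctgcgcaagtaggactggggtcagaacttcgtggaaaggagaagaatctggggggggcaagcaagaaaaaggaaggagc
Casq1 start region, chr1:172219846-172220145, minus strand: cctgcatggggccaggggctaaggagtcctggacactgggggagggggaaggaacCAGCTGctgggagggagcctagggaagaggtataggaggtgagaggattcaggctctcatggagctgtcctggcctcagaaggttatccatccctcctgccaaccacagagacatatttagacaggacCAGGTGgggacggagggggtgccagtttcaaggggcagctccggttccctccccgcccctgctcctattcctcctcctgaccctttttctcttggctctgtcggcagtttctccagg
Sypl2 start region, chr3:108226550-108226849, minus strand: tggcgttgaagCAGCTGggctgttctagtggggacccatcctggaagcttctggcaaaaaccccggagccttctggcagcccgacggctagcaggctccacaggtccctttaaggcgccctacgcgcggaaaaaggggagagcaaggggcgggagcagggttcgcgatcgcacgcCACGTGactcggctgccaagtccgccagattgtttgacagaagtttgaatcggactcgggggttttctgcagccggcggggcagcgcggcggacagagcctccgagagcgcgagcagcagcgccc
Casq2 start region, chr3:102086165-102086464, plus strand: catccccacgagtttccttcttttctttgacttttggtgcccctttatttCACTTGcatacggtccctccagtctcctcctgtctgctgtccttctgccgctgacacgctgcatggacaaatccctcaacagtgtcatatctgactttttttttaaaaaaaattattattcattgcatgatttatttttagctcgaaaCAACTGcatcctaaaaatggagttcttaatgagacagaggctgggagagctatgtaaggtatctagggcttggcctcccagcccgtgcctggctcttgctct

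Sln lies at chr9:53850164-53854560 on the plus strand, and Strit1, which is no member but encodes DWORF, a peptide that counters the inhibition of the pump, at chr3:63481112-63483879 on the minus strand. Their coding sequences in GENCODE M21 (GRCm38), where Strit1 is listed as Gm34302, have 31 and 34 codons before the stop. Start and stop codons are in capitals.
Sln coding sequence: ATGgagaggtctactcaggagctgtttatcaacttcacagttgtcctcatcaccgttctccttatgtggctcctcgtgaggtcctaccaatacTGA
Strit1 coding sequence: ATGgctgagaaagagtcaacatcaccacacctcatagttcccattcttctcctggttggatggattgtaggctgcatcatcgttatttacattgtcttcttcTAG

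The remaining members lie at chr5:122453513-122502225 (Atp2a2, minus strand), chr10:33080554-33476709 (Trdn, plus strand), chr1:16964560-17097889 (Jph1, minus strand), chr2:163336242-163397993 (Jph2, minus strand) and chr15:78191114-78206400 (Pvalb, minus strand).

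The sections held between 14179161 and 82859104 UMIs, with a median of 15434 to 45284 UMIs per spot. A spot was counted as muscle where the mean log-normalized value of 9 muscle genes (Acta1, Myl1, Mylpf, Tnnt3, Actn2, Neb, Ttn, Des and Ryr1, none of them a member) lay above a threshold set within its section. This left 549, 571 and 581 muscle spots in the E14.5 controls, 491 in the E14.5 CaV1.1 -/- section, 3092 and 2199 in the E18.5 controls, 813 in the E18.5 CaV1.1 -/- section and 1577 in the section labelled bCat cKO. A spot can hold several cells, and fewer muscle cells in a spot and less RNA per muscle cell cannot be told apart. The 9 muscle genes took 2.16% to 2.74% of the UMIs of muscle spots in E14.5 controls and 1.62% in the E14.5 CaV1.1 -/- section. At E18.5 they took 12.8% and 13.2% in controls, 7.14% in the CaV1.1 -/- section and 10.5% in the section labelled bCat cKO. Because these shares differ between groups, each difference below was computed on CPM, counts scaled to the same library total with TMM factors and so relative to all genes, and again with the libraries scaled to the summed UMIs of the 9 muscle genes, which is relative to muscle transcripts. Where the second scaling turns a difference that is reported with its test, its value stands in the same sentence. The contrast of muscle with other spots was scaled by TMM only.

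Other tissue was present in the muscle spots to a varying degree. Of the marker lists of other cell types, hepatocyte genes summed to between 1 and 705 raw CPM (UMIs scaled to the library total without TMM factors) over the 8 sections, erythrocyte genes to between 115 and 3652 raw CPM, and cartilage genes to 948 raw CPM in E18.5 control 1 against at most 54 raw CPM elsewhere. Cardiac genes, which matter for Atp2a2 and Casq2, summed to 72 to 116 raw CPM in E14.5 controls and 10 to 11 raw CPM in E18.5 controls, of which Myh6 alone gave 68.3 to 113 and then 6.42 and 7.02 raw CPM, while Myl7 was at 1.74 to 3.19 and at 1.68 and 2.52 raw CPM. The part of these tissues in the results below was not tested. Cacna1s, the gene of CaV1.1, was at 14.96 to 18.4 CPM in E14.5 controls and 13.4 CPM in the CaV1.1 -/- section of that stage, and at 84.4 and 87.3 CPM in E18.5 controls against 29.7 CPM in the CaV1.1 -/- section. The probes read the transcript and not the protein, so a remaining signal does not check the genotype. Ctnnb1, the gene of β-catenin, was at 96.2 CPM in the section labelled bCat cKO against 97.4 and 104.6 CPM in the E18.5 controls. Where its probe lies is not known and other cells of a spot keep the gene, so this reading does not check the genotype, and every direction drawn for that section rests on its label.

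All 10 members were muscle genes in these sections. Between muscle spots and the other spots of the same section, 10 of 10 were higher in muscle in E14.5 controls, where 21.7% of 15473 genes were higher and 15.6% lower, and 10 of 10 in E18.5 controls, where 29.1% were higher and 24.1% lower (edgeR's quasi-likelihood test with Benjamini-Hochberg adjustment over all genes tested, the test behind every adjusted p below). The difference was smallest for Atp2a2, with log2 1.11 ± 0.09 (SE) at E14.5 and 1.29 ± 0.11 at E18.5. Every member was also read in the other spots of every section, which lie below the muscle threshold and can still hold muscle. Atp2a2 was at 560 and 445 CPM in the other spots of the E18.5 controls against 1197 and 1238 CPM in muscle. The TMM factors here were set over muscle and other spots together and differ from those of the muscle sums used below. In raw CPM, Atp2a1 was at 3584 and 2551 in these other spots and Atp2a2 at 557 and 469. The other 9 members had log2 differences of 1.37 to 2.56 in controls. Sypl2 had the largest of them at both stages (2.25 ± 0.15 and 2.56 ± 0.16).

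Between E14.5 and E18.5, all 10 members rose in control muscle relative to all genes, against 33.2% of 14832 genes that rose and 32.3% that fell. The median log2 difference of the members was 2.94, and that of all genes was −0.01. Relative to the 9 muscle genes, 4 of the 10 members rose (Atp2a1, Casq1, Pvalb and Sypl2), 5 fell (Atp2a2, Casq2, Jph1, Jph2 and Sln) and Trdn was at −0.05, on a scale where 1.41% of all genes rose, 94.4% fell and the median of all genes was at −3.19. The members therefore gained at different rates beside the contractile genes, as the plot of levels by section and the plot of differences under both scalings show.

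**Figure D1:**
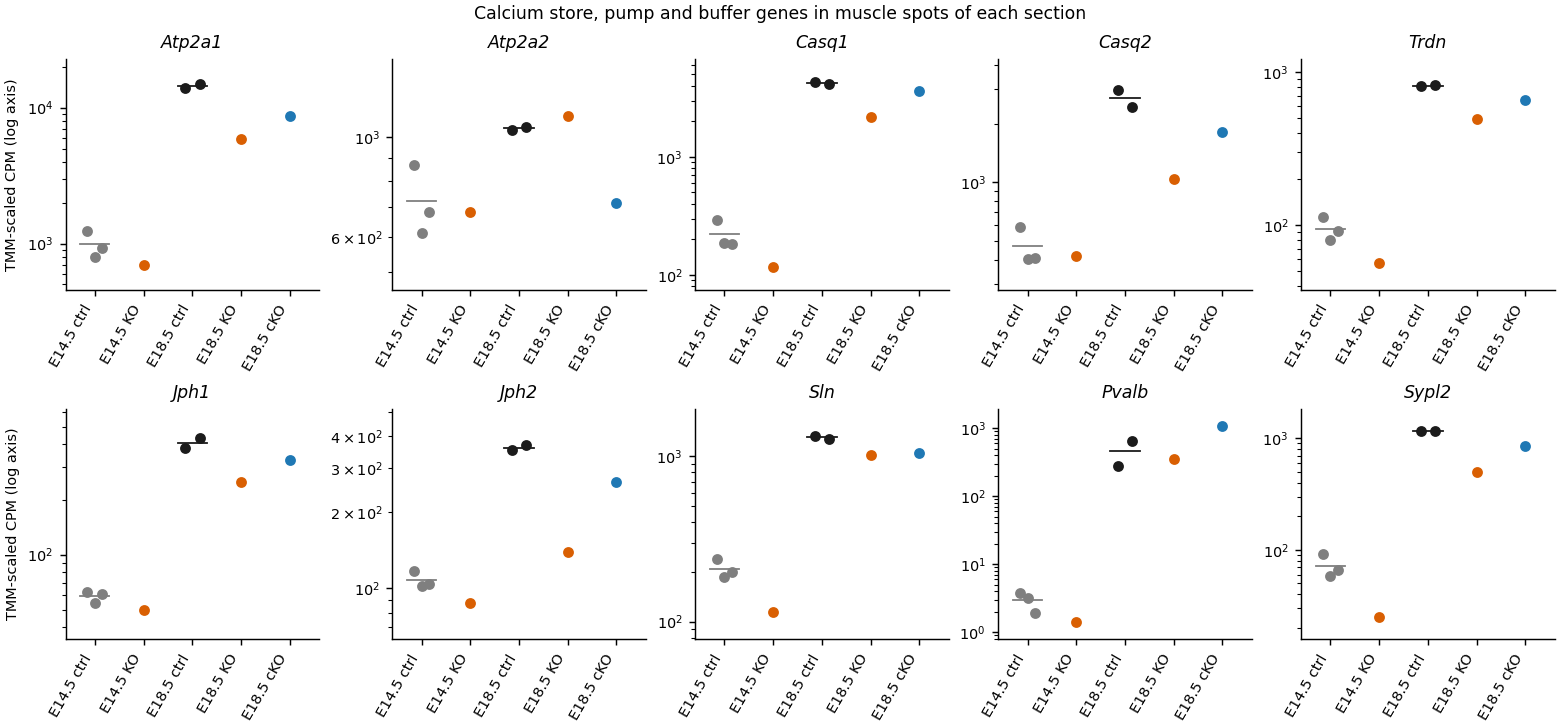
TMM-scaled CPM of each member in muscle spots (log axis), 1 point per section and a line at the mean of groups with more than 1 section. Every E18.5 section lies above every E14.5 section for 9 members, and for Atp2a2 the section labelled bCat cKO (715 CPM) lies among the E14.5 controls (613 to 867 CPM).

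The SERCA pump genes separated. Atp2a1 was at 1232, 801 and 922 CPM in the E14.5 controls and at 13909 and 15020 CPM in the E18.5 controls, a 14.7-fold rise of the mean (log2 3.88 ± 0.20, adjusted p = 2.9e-06). The groups lay far apart, and the rise held relative to the muscle genes (0.73). Atp2a2 was at 867, 613 and 681 CPM at E14.5 and at 1039 and 1056 CPM at E18.5. Its rise was the smallest of the members (log2 0.54 ± 0.15, adjusted p = 0.016), turned to −2.61 relative to the muscle genes, and missed the threshold without E14.5 control 3 (adjusted p = 0.064) or without E18.5 control 2 (adjusted p = 0.060). The log2 ratio of Atp2a1 to Atp2a2, which needs no scaling between sections, went from 0.39 to 0.51 in E14.5 controls to 3.74 and 3.83 in E18.5 controls. Probes of a pair of genes may differ in yield, so only the change of such a ratio can be read. Sarcolipin (Sln) was at 239, 186 and 200 CPM at E14.5 and at 1325 and 1281 CPM at E18.5 (log2 2.64 ± 0.13, but −0.52 relative to the muscle genes).

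The store genes Casq1 and Casq2 also rose to different degrees. Casq1 was at 290, 187 and 184 CPM in E14.5 controls and at 4322 and 4174 CPM in E18.5 controls, a 19.3-fold rise (log2 4.27 ± 0.22, and 1.13 relative to the muscle genes). Casq2 was at 592, 404 and 410 CPM and later at 2982 and 2427 CPM, a 5.77-fold rise (log2 2.53 ± 0.19, but −0.62 relative to the muscle genes). The log2 ratio of Casq1 to Casq2 lay between −1.16 and −1.03 in the E14.5 controls and at 0.54 and 0.78 in the E18.5 controls, so it changed sign. Trdn, the anchor of calsequestrin, was at 114, 80.3 and 91.3 CPM and later at 817 and 823 CPM (log2 3.11 ± 0.15, but −0.05 relative to the muscle genes).

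The junction genes rose less steeply than Casq1 on both scalings. Jph1 went from 62.7, 54.7 and 61.0 CPM to 382 and 433 CPM (log2 2.78 ± 0.11, but −0.40 relative to the muscle genes). Jph2, the form also used by the heart, went from 117, 102 and 104 CPM to 352 and 368 CPM (log2 1.74 ± 0.10, but −1.43 relative to the muscle genes). Their log2 ratio went from between −0.90 and −0.76 to 0.12 and 0.23. In all 3 pairs the log2 ratio was higher in both E18.5 controls than in each of the 3 E14.5 controls. Sypl2, the junction protein mitsugumin 29, went from 92.6, 57.8 and 66.1 CPM to 1173 and 1165 CPM (log2 4.02 ± 0.20, and 0.87 relative to the muscle genes).

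Parvalbumin had the steepest rise. Pvalb was close to the detection limit in E14.5 control muscle, with 89, 115 and 31 UMIs (3.8, 3.2 and 1.9 CPM), and reached 15462 and 30475 UMIs (281 and 662 CPM) in the E18.5 controls. The log2 difference was 7.27 ± 0.42 (adjusted p = 5.2e-06), and 4.11 relative to the muscle genes. The E18.5 controls differed from each other 2.36-fold in Pvalb, more than for any other member, and this spread sets how firmly any Pvalb difference at E18.5 can be read.

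Most other calcium genes tested rose by TMM, where 33.2% of all genes rose and 32.3% fell. Of 13 further store and pump regulators 9 rose and 4 fell, of 7 release and coupling genes 7 rose, of 11 genes of entry, extrusion and mitochondrial uptake 9 rose and 1 fell, and of 14 tested cytosolic binding and sensing genes 8 rose and none fell. Relative to the muscle genes these lists turned, with 0 of 13, 0 of 7, 0 of 11 and 1 of 14 higher and 12, 7, 10 and 13 lower. Over all genes 1.41% were higher and 94.4% lower on that scale. The largest TMM values were those of the kinase Camk2b (log2 3.83, and 0.67 relative to the muscle genes), Strit1 (3.58, and 0.39) and the exchanger Slc8a3 (3.33, and 0.13). Jsrp1, a junctional protein (2.69, but −0.47), Srl, the sarcalumenin of the store (2.68, but −0.46), the store sensor Stim1 (2.67, but −0.51) and the channel subunits Cacng1 (2.63, but −0.53) and Cacna1s (2.38, but −0.81) turned on that scale. Pln, the cardiac and slow-fiber pump inhibitor, had 9, 10 and 9 UMIs in E14.5 controls and 2 and 0 UMIs in E18.5 controls (log2 −4.08 by TMM), within 3 counts of none in the latter.

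**Figure D2:**
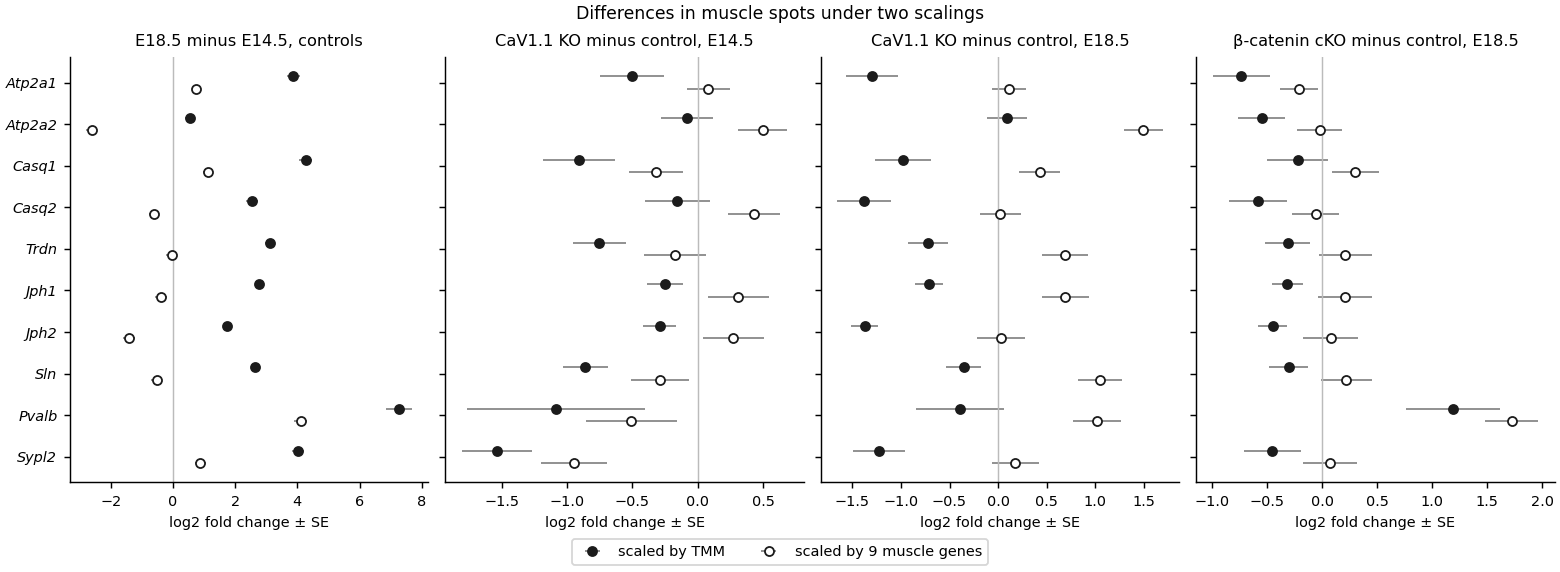
log2 fold change ± SE of each member in muscle spots for 4 comparisons, scaled by TMM (filled) and to the 9 muscle genes (open). In CaV1.1 -/- muscle at E18.5 every member but Atp2a2 lies below 0 by TMM, and all 10 lie above 0 relative to the muscle genes.

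In E14.5 CaV1.1 -/- muscle all 10 members were fitted lower than in controls by TMM, with log2 differences of −1.54 to −0.08, but Atp2a2 (0.50), Casq2 (0.43), Jph1 (0.31), Jph2 (0.27) and Atp2a1 (0.08) were above 0 relative to the muscle genes. By TMM 1 of the 10 passed the test. Over all genes 1.54% fell and 0.533% rose. Sypl2 was at 24.9 CPM against 57.8 to 92.6 CPM in the 3 controls (34.5% of the control mean, log2 −1.54 ± 0.27, adjusted p = 0.037, and −0.95 relative to the muscle genes). This call was lost without E14.5 control 3 (log2 −1.59, adjusted p = 0.11). Sln was at 115 CPM against 186 to 239 CPM (adjusted p = 0.057) and Trdn at 56.4 CPM against 80.3 to 114 CPM (adjusted p = 0.12), both below every control but not past the threshold, whereas DESeq2 called both together with Sypl2. Without E14.5 control 1, Sln (−0.75) and Casq1 (−0.66) passed as lower. Atp2a2 was at 680 CPM, within the controls, and was higher by 0.50 relative to the muscle genes, against −0.08 by TMM. The log2 ratio of Atp2a1 to Atp2a2 was 0.03 against 0.39 to 0.51 in the controls, and that of Casq1 to Casq2 was −1.84 against −1.16 to −1.03. Among the other calcium genes Strit1 (−1.57), Camk2b (−1.16), Camk2a (−0.81) and Stim1 (−0.68) fell and none rose. On the muscle gene scale these 4 were at −1.03, −0.59, −0.25 and −0.12 and did not pass, while 2 of 13 store and pump regulators, 5 of 11 genes of entry, extrusion and mitochondrial uptake and 5 of 14 cytosolic genes were higher, against 32.2% of all genes on that scale.

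At E18.5 the CaV1.1 -/- section had less of most members per UMI of muscle spots, and 7 of 10 fell against 15.2% of all genes that fell and 10.6% that rose. None of the 7 fell relative to the muscle genes, where their log2 differences were between 0.02 and 0.69. Atp2a1 was at 5893 CPM against 13909 and 15020 CPM, or 40.7% of the control mean (log2 −1.30 ± 0.27, adjusted p = 0.013, but 0.11 relative to the muscle genes). Casq2 was at 1039 CPM, 38.4% of the control mean (log2 −1.38 ± 0.28, but 0.02), and Jph2 at 139 CPM, 38.6% (log2 −1.37 ± 0.14, adjusted p = 0.0015, but 0.03). These 3 genes fell by about as much as the summed muscle genes.

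Casq1, Trdn and Jph1 fell less. Casq1 was at 2162 CPM (50.9% of the control mean, log2 −0.97 ± 0.29, but 0.43 relative to the muscle genes), Trdn at 499 CPM (60.8%, −0.72 ± 0.21, but 0.69) and Jph1 at 249 CPM (61.0%, −0.71 ± 0.14, but 0.69). Casq1 lost its call without E14.5 control 2 (adjusted p = 0.051), E14.5 control 3 (0.064), E18.5 control 1 (0.090) or E18.5 control 2 (0.074), and Trdn without E14.5 control 3 (0.078), E18.5 control 1 (0.074) or E18.5 control 2 (0.071). Sypl2 was at 500 CPM against 1165 and 1173 CPM (42.7%, log2 −1.23 ± 0.27, but 0.18 relative to the muscle genes).

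The members that did not pass the test at E18.5 were the pump form Atp2a2, its regulator Sln and parvalbumin. Atp2a2 was at 1115 CPM against 1039 and 1056 CPM (log2 0.09 ± 0.21, and 1.496 relative to the muscle genes, where it passed). Sln was at 1018 CPM against 1281 and 1325 CPM (log2 −0.36, but 1.05 relative to the muscle genes), and without E14.5 control 1 it passed as lower by TMM (adjusted p = 0.0499). Pvalb, at 360 CPM, lay between the controls (281 and 662 CPM, log2 −0.39, but 1.02 relative to the muscle genes, where it passed). The log2 ratio of Atp2a1 to Atp2a2 was 2.40 against 3.74 and 3.83 in the controls, while those of Casq1 to Casq2 (1.06 against 0.54 and 0.78) and of Jph1 to Jph2 (0.84 against 0.12 and 0.23) were above both controls.

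Most of the other calcium genes that passed fell too by TMM. In the E18.5 CaV1.1 -/- section 7 of 13 store and pump regulators fell and 1 rose, 6 of 7 release and coupling genes fell, 6 of 11 genes of entry, extrusion and mitochondrial uptake fell and 2 rose, and 6 of 14 cytosolic genes fell. Relative to the muscle genes they turned, with 9 of 13, 5 of 7, 11 of 11 and 10 of 14 higher and 1 lower, against 83.4% of all genes higher and 0.688% lower on that scale, where the median of all genes was 1.40. The largest falls were those of Cacna1s itself (−1.53), Strit1 (−1.52), Srl (−1.46) and Mrln, a peptide inhibitor of the pump (−1.30), and on that scale they were at −0.13, −0.12, −0.06 and 0.11. Slc8a3, the sodium-calcium exchanger, was at 41.0 CPM against 20.7 and 22.8 CPM (log2 0.91 ± 0.19, and 2.32 relative to the muscle genes). Calb2, a calcium buffer of other cells, had 0 UMIs in the CaV1.1 -/- muscle spots, where a count of 0 allows up to 3, against 57 and 24 UMIs in the controls. These counts come from unlike depth, with 16293312 UMIs in the CaV1.1 -/- muscle spots against 75800909 and 62934506 in those of the controls.

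In bCat cKO muscle none of the 10 members passed the edgeR test, although 4 had an unadjusted p under 0.05 and DESeq2 called 3 (Jph2, Atp2a2 and Atp2a1). Over all genes 5.62% fell and 3.18% rose. Atp2a1 was at 8678 CPM, 59.99% of the control mean (log2 −0.74 ± 0.26, adjusted p = 0.13), Atp2a2 at 715 CPM, 68.3% (−0.55 ± 0.21, 0.16), and Jph2 at 263 CPM, 73.2% (−0.45 ± 0.13, 0.076, but 0.07 relative to the muscle genes). Without E14.5 control 1, which enters only through the shared spread, these 3 and Casq2 (−0.59) passed. All members but Pvalb lay below both controls by TMM, but Casq1 (0.30), Sln (0.22), Trdn (0.21), Jph1 (0.21), Jph2 (0.07) and Sypl2 (0.07) were above 0 relative to the muscle genes. Pvalb was at 1076 CPM (43981 UMIs) against 281 and 662 CPM, 228% of the control mean (log2 1.19 ± 0.43, adjusted p = 0.13), and 1.72 relative to the muscle genes, where it passed. Without E18.5 control 2, the control with more Pvalb, the difference was 1.94 (adjusted p = 0.011).

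The mutants were also set against each other and between stages. Of the 10 members only Jph2 passed either test. The CaV1.1 -/- difference of Jph2 was more negative at E18.5 than at E14.5 by 1.08 ± 0.18 on the log2 scale (adjusted p = 0.026, against 4.18% of genes lower and 2.22% higher), and by 0.24 relative to the muscle genes. This call was lost without E14.5 control 2 (adjusted p = 0.061) or E14.5 control 3 (0.082). Jph2 was also lower in CaV1.1 -/- than in bCat cKO muscle at E18.5 (139 against 263 CPM, log2 −0.92 ± 0.15, adjusted p = 0.014, against 4.43% of genes lower and 2.87% higher), a difference of −0.04 relative to the muscle genes. Without E14.5 control 1, Casq2 (−1.43) and Atp2a1 (−0.99) also passed for the stages by TMM, although with all controls Atp2a1 was at 0.03 relative to the muscle genes. Between the mutants Casq1 (−0.75), Casq2 (−0.80), Sypl2 (−0.77) and Atp2a1 (−0.56), which with all controls were at 0.13, 0.09, 0.11 and 0.32 relative to the muscle genes, and Atp2a2 (0.64) also passed without E14.5 control 1, as did Pvalb (−1.58) without either E18.5 control. Each of these sections stands alone, so the embryo and the genotype cannot be told apart.

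Among the listed calcium genes, a pump regulator outside the members had the largest difference in bCat cKO muscle. Strit1 (the coding sequence above) had 1547 and 1451 UMIs in the muscle spots of the E18.5 controls (28.1 and 31.5 CPM), 179 UMIs in the CaV1.1 -/- section (10.4 CPM) and 5 UMIs in the section labelled bCat cKO (0.12 CPM). The log2 difference in bCat cKO muscle was −7.88 ± 0.30 (adjusted p = 0.00013), rank 6 of 14832 genes by fall, and −7.35 relative to the muscle genes. None of the 6 nearest tested genes on the chromosome passed, Mme before it (−0.42 ± 0.45) and Plch1 after it (1.27 ± 0.53) among them. The other called store and pump regulators in that section were Srl (−1.33, and −0.81 relative to the muscle genes), Atp2a3 (−0.96, and −0.44), Mrln (−0.86, and −0.34) and Pln, with 22 UMIs against 2 and 0 UMIs in the controls.

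Within the muscle, spots were divided by genes that are not members. Center spots were the 15% with the most endplate transcripts (such as Chrna1 and Musk), periphery spots the 15% with the most transcripts of the myotendinous junction (such as Col22a1 and Ankrd1), and the rest were intermediate. At E14.5 most calcium store and pump genes were richer in the center, with 7 of 10 members higher there than in the periphery, 1 lower and 2 not called, against 11.7% of 14158 genes higher and 8.62% lower. Atp2a1 was at 1526, 1202 and 1155 CPM in the centers of the 3 controls and at 829, 536 and 736 CPM in their peripheries (log2 0.91 ± 0.07, adjusted p = 3.3e-12). Sypl2 (0.88 ± 0.09), Casq1 (0.81 ± 0.08), Sln (0.69 ± 0.07), Casq2 (0.50 ± 0.06), Jph2 (0.44 ± 0.08) and Atp2a2 (0.26 ± 0.05) followed, and all 7 remained above 0 relative to the muscle genes.

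Jph1 and Trdn did not share that gradient at E14.5. Jph1 was at 63.9, 55.2 and 64.9 CPM in the centers and at 77.0, 70.5 and 65.8 CPM in the peripheries (log2 −0.25 ± 0.08, adjusted p = 0.022), but it was at 0.30 when regions were set by distance from the muscle edge, and the call was lost without E14.5 control 1 (adjusted p = 0.13) or E14.5 control 2 (0.37). Trdn was at −0.02 ± 0.08, and at 0.44 by distance. Pvalb, with under 6 CPM in each region, could not be placed. Of the other calcium genes, 7 of 12 store and pump regulators, 3 of 7 release and coupling genes and 6 of 11 genes of entry, extrusion and mitochondrial uptake were higher in the center and none lower, and of 14 cytosolic genes 1 was higher and 2 lower, with Ryr3 (0.95), Stim1 (0.82) and Tmem38a (0.81) among the largest. Relative to the muscle genes 4 of 12, 2 of 7, 4 of 11 and 1 of 14 were higher and 1, 0, 2 and 3 lower, against 4.34% of all genes higher and 15% lower. The E14.5 CaV1.1 -/- section kept center values above the periphery for Atp2a1 (1033 and 626 CPM), Casq1 (182 and 104 CPM) and Sln (188 and 102 CPM), and 0 of 10 members differed from the controls in this respect by edgeR, where 2 had an unadjusted p under 0.05, DESeq2 called 0, and 0.141% of all genes differed in either direction.

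**Figure D3:**
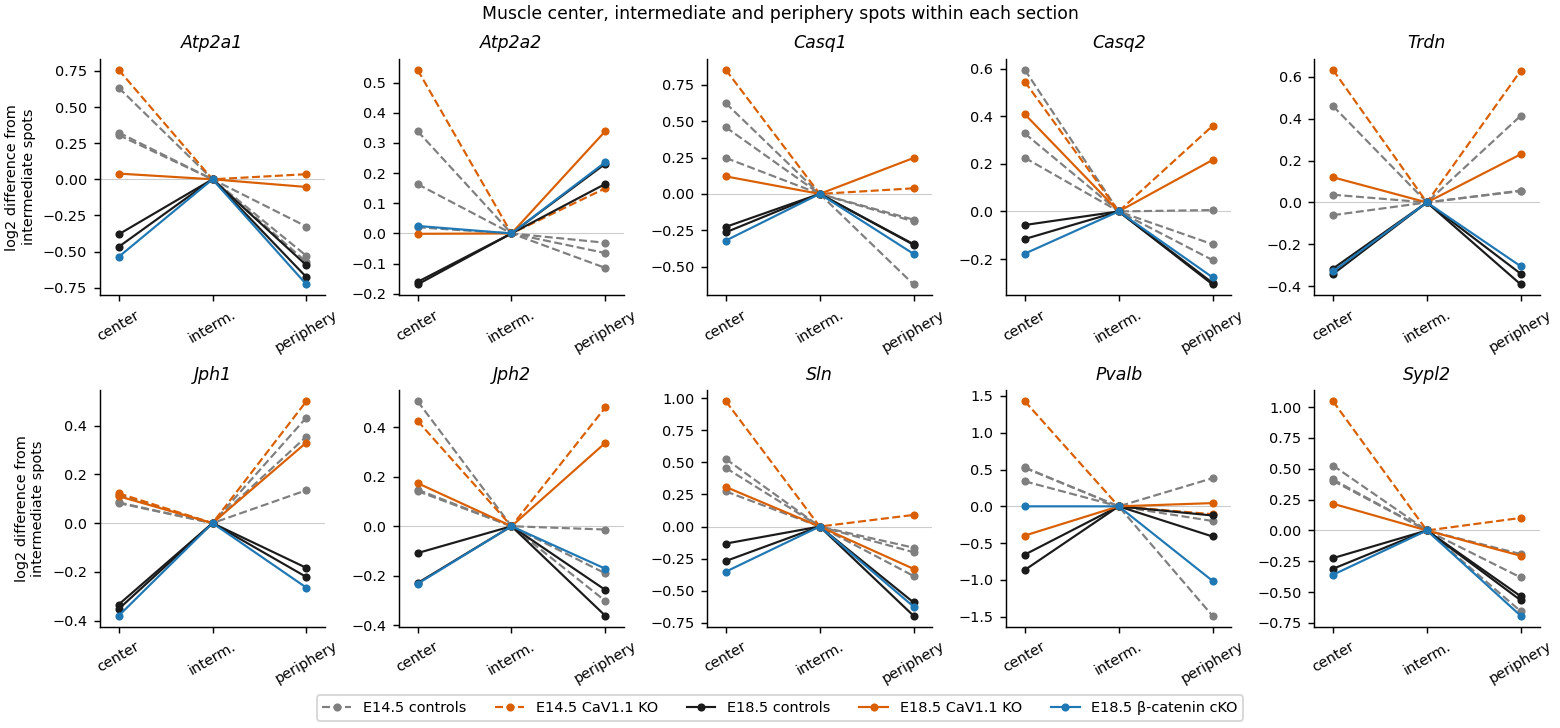
log2 difference of center and periphery from the intermediate spots of the same section, 1 line per section (dashed at E14.5). Atp2a1 falls from center to periphery at E14.5 and peaks in intermediate spots at E18.5, and Pvalb of the section labelled bCat cKO (blue) has equal center and intermediate values.

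At E18.5 the peak of most members lay between center and periphery. Against intermediate spots, 9 of 10 members were lower in the center of the 2 controls (all but Casq2), where 7.88% of genes were lower and 4.09% higher, and 9 of 10 were lower in the periphery, where 19.6% were lower and 11.2% higher. Pvalb had the largest center difference, with 171 CPM in the center against 312 CPM in intermediate spots of control 1, and 474 against 746 CPM in control 2 (log2 −0.74 ± 0.07, adjusted p = 4.3e-10). Atp2a1 was at 11342 against 15689 CPM and at 12975 against 16899 CPM (−0.42 ± 0.07), and this too held relative to the muscle genes (−0.14). For Casq1 (−0.25, but 0.04), Atp2a2 (−0.16, but 0.12), Sln (−0.20, but 0.08), Jph2 (−0.17, but 0.11) and Sypl2 (−0.27, but 0.02) the center difference turned relative to the muscle genes. Trdn was at −0.33 and Jph1 at −0.34, and each was at −0.05 and −0.06 on that scale.

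Several center calls depended on single libraries. Casq1, Jph2 and Atp2a2 lost them without E18.5 control 1 or E18.5 control 2, Sypl2 (−0.22, adjusted p = 0.10) and Sln (−0.13, adjusted p = 0.53) without E18.5 control 1, and Jph2 (−0.16, 0.076) and Atp2a2 (−0.16, 0.089) also without E14.5 control 1. With regions set by distance, where the inner spots lie more than 200 µm from the nearest spot that is not muscle, 8 of the 9 were fitted higher in the inner spots than between 100 and 200 µm (Pvalb 0.33 and Atp2a1 0.36). These inner spots were 2406 of 3092 and 1798 of 2199 muscle spots of the E18.5 controls, set against 373 and 199 spots. They take in most of the muscle and not only its endplate spots. The contrast by distance and that by endplate genes thus compare unlike sets of spots.

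In the periphery Atp2a2 stood out. It was at 1219 and 1198 CPM in the peripheries of the E18.5 controls against 1039 and 1069 CPM in intermediate spots (log2 0.20 ± 0.06, adjusted p = 0.0053, 0.64 relative to the muscle genes, but −0.18 by distance), and it lost the call without either E18.5 control (adjusted p = 0.17 without control 1 and 0.051 without control 2). Sln (−0.64 ± 0.06), Atp2a1 (−0.64 ± 0.07) and Sypl2 (−0.55 ± 0.05) had the largest peripheral deficits and kept them relative to the muscle genes (−0.20, −0.19 and −0.11). The deficits of Trdn (−0.37, but 0.08), Casq1 (−0.35, but 0.09), Jph2 (−0.31, but 0.13), Casq2 (−0.30, but 0.14), Pvalb (−0.27, but 0.18) and Jph1 (−0.20, but 0.24) turned on that scale. Jph1 lost its call without E18.5 control 1 (adjusted p = 0.068) and Pvalb without E18.5 control 2 (−0.12, adjusted p = 0.32). Tendon genes had less signal in the center than the periphery of every section, with a ratio of 0.29 and 0.22 in the E18.5 controls.

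Among the other calcium genes of the E18.5 controls, 9 of 12 store and pump regulators were lower and 2 higher in the periphery than in intermediate spots, led by Strit1 (−0.95), Fkbp1b (0.90), Atp2a3 (−0.77) and Tmem38a (−0.53), which were at −0.51, 1.34, −0.33 and −0.09 relative to the muscle genes. Of 7 release and coupling genes 3 were lower and 1 higher, of 11 genes of entry, extrusion and mitochondrial uptake 5 and 1, and of 14 cytosolic genes 8 and 1. On the muscle gene scale 5 of 12, 6 of 7, 7 of 11 and 12 of 14 were higher instead and 1 store regulator lower, against 60.7% of all genes higher and 1.55% lower. In the center 4 of 12 store and pump regulators, 4 of 7 release and coupling genes, 1 of 11 genes of entry, extrusion and mitochondrial uptake and 2 of 14 cytosolic genes were lower and 1 entry gene higher, Cacna1s (−0.36), Tmem38b (−0.32) and Tmem38a (−0.30) among them, with −0.08, −0.04 and −0.01 relative to the muscle genes. On that scale 4 of 12, 0 of 7, 8 of 11 and 6 of 14 were higher and none lower, against 34.2% of all genes higher and 0.325% lower.

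The center to periphery difference of each E18.5 mutant section was set against that of the controls. With 1 section per mutant, the embryo and the genotype cannot be told apart. In the E18.5 CaV1.1 -/- section the difference between center and periphery departed from that of the controls for 0 of 10 members by edgeR, with 0 at an unadjusted p under 0.05 and 0 by DESeq2, against 0.579% of all genes in either direction. In the section labelled bCat cKO it departed for 1, Pvalb, against 1.24% of all genes. Pvalb was at 1198 CPM in the center, 1198 CPM in intermediate spots and 594 CPM in the periphery of that section. Both controls had the reverse order, with 171 and 474 CPM in the center and 286 and 562 CPM in the periphery, and the CaV1.1 -/- section had 288 and 391 CPM. The change of the difference was 1.49 ± 0.11 on the log2 scale (adjusted p = 7.0e-10), and 1.61 relative to the muscle genes. It passed without each control in turn and missed the threshold without the section block and with regions by distance. Fast-fiber genes had a center to periphery ratio of 1.36 in the section labelled bCat cKO against 1.08 and 1.14 in the controls, and their part in the difference was not tested.

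**Figure D4:**
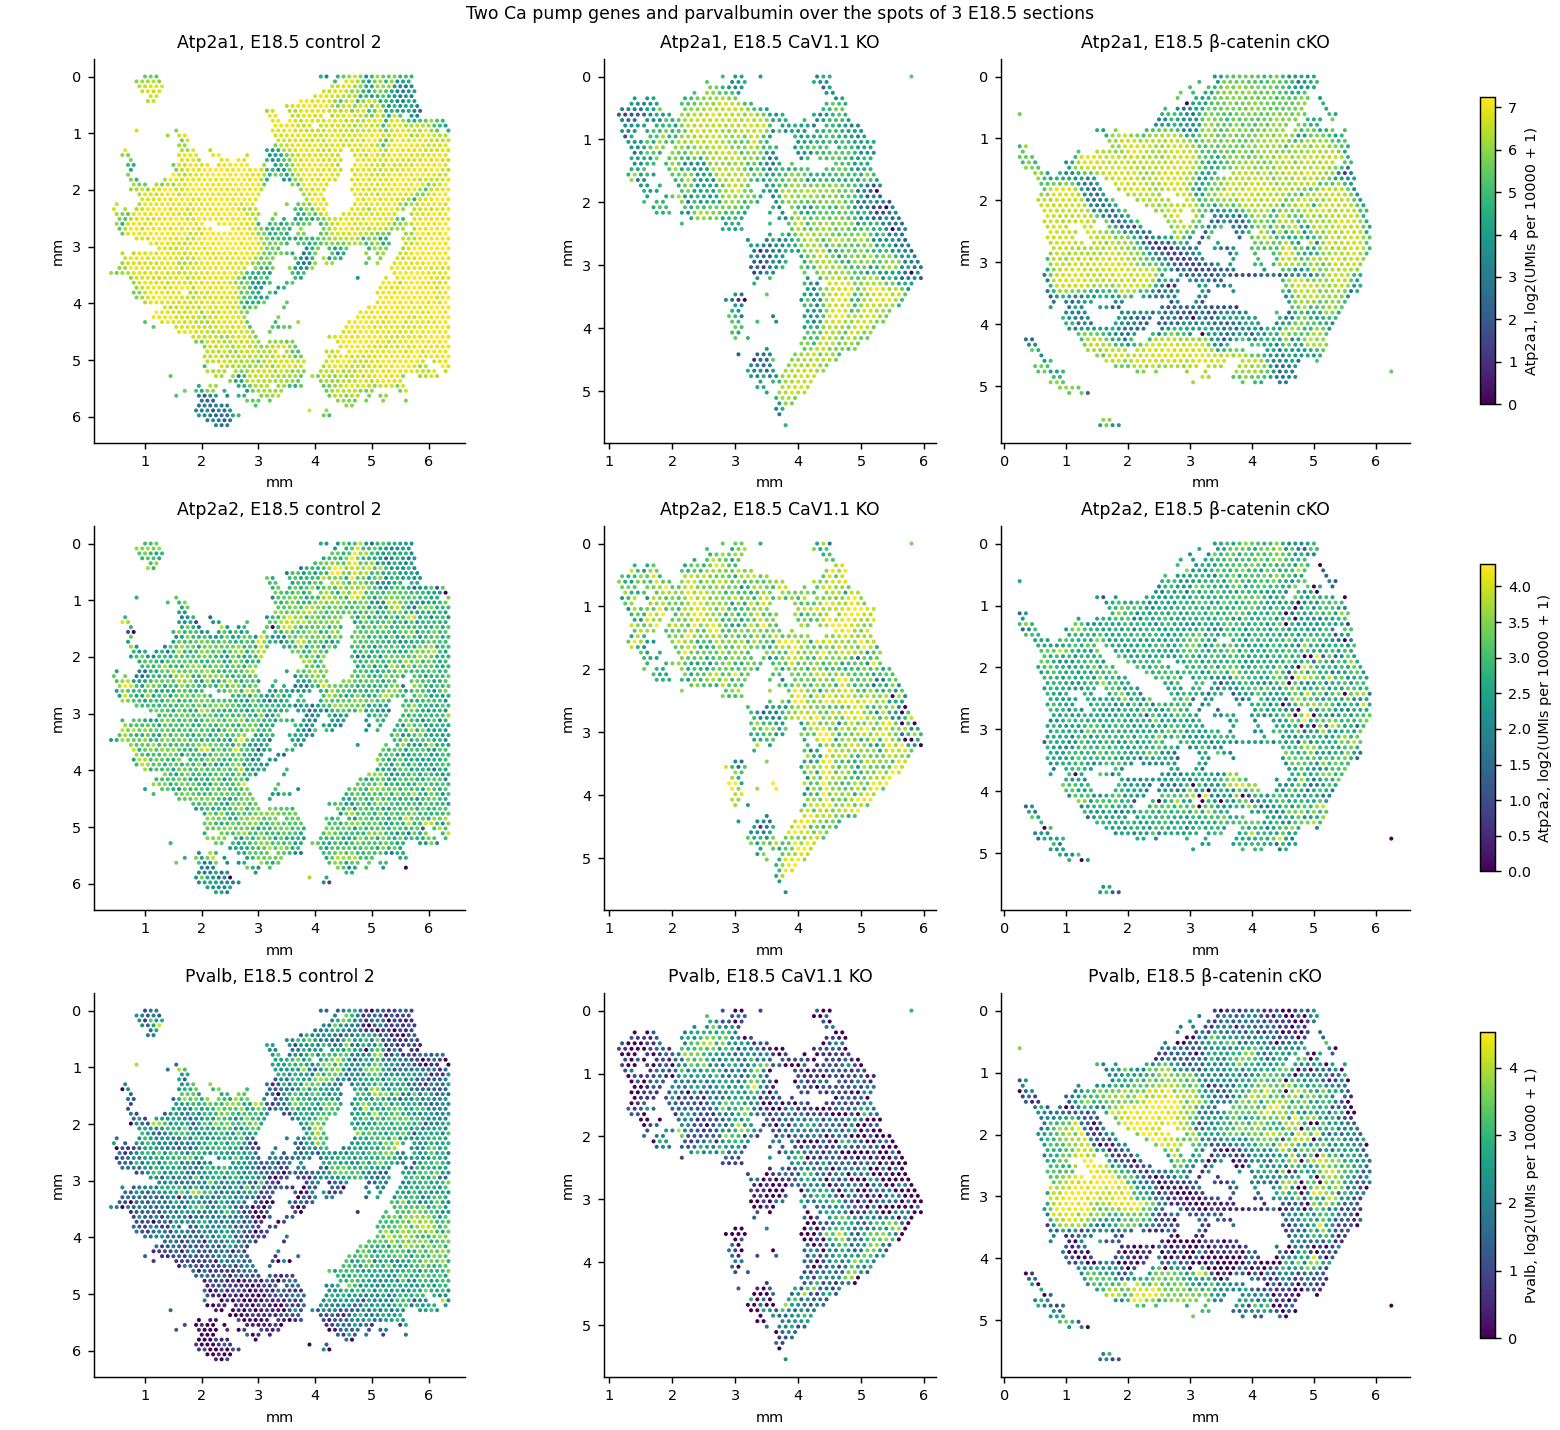
Log-normalized UMIs (log2 of UMIs per 10000 plus 1) of Atp2a1, Atp2a2 and Pvalb over the spots of 1 E18.5 control, the CaV1.1 -/- and the section labelled bCat cKO, on axes in mm. Pvalb is brightest in the section labelled bCat cKO, where its mean level in muscle was 1076 CPM against 662 CPM in this control.

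Muscle spots were further ranked by fast-fiber genes (Myh4, Mybpc2 and Actn3) minus slow-fiber genes (such as Myh7 and Tnni1), and the upper 25% was compared with the lower 25%. In the E18.5 controls 8 of 10 members were higher in fast-rich spots and 1, Atp2a2, lower, against 9.28% of 13654 genes higher and 6.39% lower. Pvalb was at 442 and 1029 CPM in fast-rich spots and at 145 and 366 CPM in slow-rich spots of the 2 controls (log2 1.55 ± 0.07, adjusted p = 6.6e-15, and 1.16 relative to the muscle genes). Atp2a2 was at 829 and 891 CPM against 1288 and 1212 CPM (−0.54 ± 0.08, adjusted p = 1.1e-05, and −0.93). These were the members with a clear fiber-type direction on both scalings.

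For the other members the difference shrank or turned relative to the muscle genes. Atp2a1 (0.61 ± 0.08), Casq1 (0.44 ± 0.08) and Sypl2 (0.39 ± 0.07) were higher in fast-rich spots and at 0.22, 0.06 and 0.01 relative to the muscle genes. Jph1 (0.37, but −0.02), Trdn (0.35, but −0.04), Sln (0.24, but −0.15) and Jph2 (0.19, but −0.20) turned on that scale, and Casq2, which was not called by TMM (0.14 ± 0.08), was at −0.25 and passed as lower. Jph1, Jph2, Sln and Trdn lost their calls without E18.5 control 1, and Jph2 also without E14.5 control 2 (adjusted p = 0.083) or E14.5 control 3 (0.10). The same 4 lost them without E18.5 control 2. The 9 muscle genes themselves had a fast-rich to slow-rich ratio of 1.16 and 1.19 in the controls. They include Tnnt3, which the study counts among fast troponins, so this scale is not neutral between the classes. On it the median of all genes was at −0.37. Signs that turn on this scale are therefore no reading of fiber type by themselves.

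Of the other calcium genes, 5 of 12 store and pump regulators were higher and 1 lower in fast-rich spots of the E18.5 controls, as were 2 of 7 release and coupling genes, 3 of 11 genes of entry, extrusion and mitochondrial uptake and 3 of 14 cytosolic genes, with none lower. Relative to the muscle genes 1, 0, 0 and 1 of them were higher and 6, 4, 6 and 8 lower, against 0.703% of all genes higher and 58.7% lower. Strit1 was the one that was lower by TMM (log2 −1.26 ± 0.15, and −1.65 relative to the muscle genes), and Atp2a3, a pump form of other cells, had the largest excess in fast-rich spots (0.84 ± 0.18, and 0.45).

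**Figure D5:**
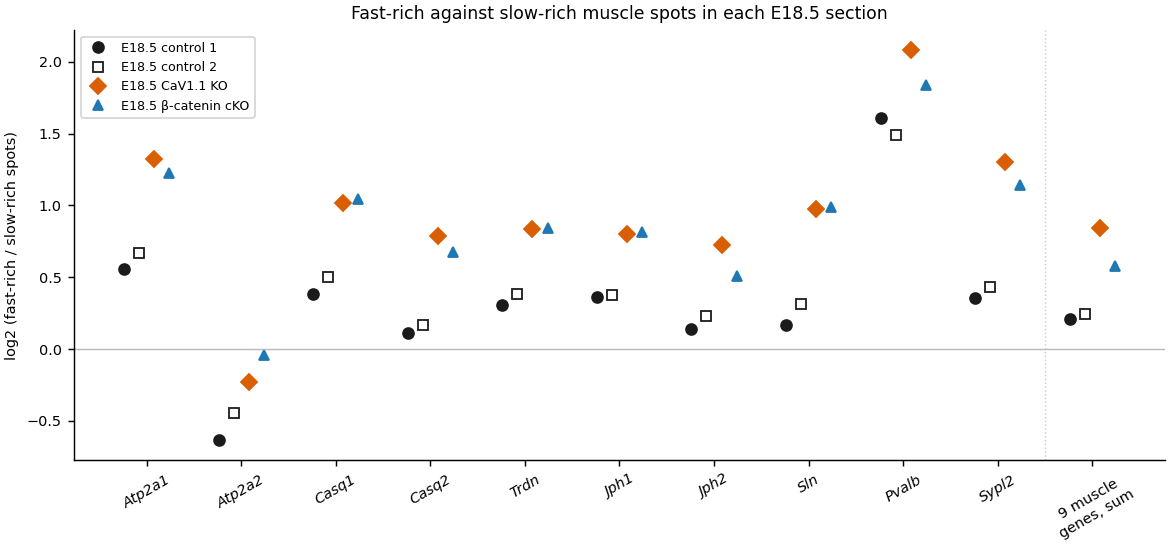
log2 ratio of fast-rich to slow-rich muscle spots for each member and for the summed 9 muscle genes, 1 point per E18.5 section. Atp2a2 is the only member below 0 in all 4 sections (relative to the muscle genes Jph1, Jph2, Casq2, Sln and Trdn were also below 0 in the controls), Pvalb is the highest in each, and the muscle genes of the CaV1.1 -/- and bCat cKO sections lie above those of the controls.

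In both E18.5 mutants the log2 difference of fast-rich from slow-rich spots was shifted upward by TMM. The shift passed for 9 of 10 members in the CaV1.1 -/- section (all but Atp2a2), against 4.74% of all genes, and for 8 of 10 in the section labelled bCat cKO (all but Jph2 and Pvalb), against 5.07%. For 9 and 7 of these the fitted excess in fast-rich spots thus widened by TMM, among them Casq2, whose excess in the controls was not called. For Atp2a2 in the section labelled bCat cKO (0.50, but −0.04 relative to the muscle genes) the deficit of the controls narrowed. Relative to the muscle genes 0 of 10 members passed in either mutant, where 52.6% and 38.5% of all genes passed in either direction, with fitted values of −0.40 to 0.20 in CaV1.1 -/- and −0.25 to 0.22 in bCat cKO. The muscle genes had a fast-rich to slow-rich ratio of 1.79 and 1.49 in these sections, so the scale itself moved with the ranking. Without E18.5 control 1, 5 of 10 members passed in CaV1.1 -/- and 3 of 10 in bCat cKO muscle. Jph1 lost its call in both sections without E14.5 control 3, as did Jph1 and Trdn without E18.5 control 2, and Pvalb in CaV1.1 -/- without the latter. Sypl2 had the largest change in CaV1.1 -/- muscle, with 772 CPM in fast-rich and 312 CPM in slow-rich spots against 1340 and 1048 CPM in control 1 and 1346 and 996 CPM in control 2 (0.91 ± 0.13, 0.20 relative to the muscle genes). Sln changed most in bCat cKO muscle, with 1483 and 746 CPM against 1424 and 1265 CPM in control 1 and 1434 and 1156 CPM in control 2 (0.75 ± 0.13, 0.22 relative to the muscle genes).

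Across single muscle spots of the E18.5 controls, the genes whose levels ran most like each member were contractile and metabolic genes of muscle. The measure was Pearson's r of log-normalized UMIs within each control, over 3092 and 2199 spots and 10359 genes, averaged over both; spots of a section share a library and depth, so r is given as a description. Atp2a1 was closest to Ckm, the muscle creatine kinase (0.888), then Acta1 (0.870) and Tnnt3 (0.850). Atp2a2 was closest to the slow troponin genes Tnni1 (0.512), Tnnt1 (0.496) and Tnnc1 (0.468), and Pvalb to the fast-fiber gene Mybpc2 (0.502), then Tnnt3 (0.455) and Actn3 (0.447). Casq1 was closest to Atp2a1 (0.669), Sypl2 to Acta1 (0.594), Sln to Slc25a4, the adenine nucleotide carrier (0.575), Casq2 to Tpm2 (0.501), Trdn to Myh8, the neonatal myosin (0.474), Jph1 to Myh8 (0.279) and Jph2 to Myl1 (0.246).

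Atp2a2 also stood apart from the other members spot by spot, but only at the later stage. In the E18.5 controls the median r of its 9 pairs was −0.09 and 0.00, against 0.17 and 0.32 for the 36 pairs of the other members. It was 0.10 against 0.37 in the CaV1.1 -/- section and 0.03 against 0.45 in the section labelled bCat cKO. In the 3 E14.5 controls the 9 pairs had medians of 0.15, 0.20 and 0.16, and the other pairs 0.12, 0.19 and 0.11.

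The distance of a muscle spot from the nearest spot that is not muscle gave a view that uses no marker gene of center or periphery. Atp2a1 was higher in spots over 300 µm from such a spot than within 100 µm in all 8 sections, with ratios of raw CPM of 1.497, 1.62 and 1.76 in E14.5 controls, 1.44 and 1.69 in E18.5 controls, 1.35 and 1.81 in the CaV1.1 -/- sections and 1.80 in the section labelled bCat cKO. Ttn, a muscle gene, had ratios of 1.097 to 1.60 in the same sections. Atp2a2 had ratios of 1.11 to 1.203 in E14.5 sections and of 0.77 to 0.99 in E18.5 sections, so its direction in raw CPM turned between the stages. The ratio of 0.99, close to no difference, was that of the E18.5 CaV1.1 -/- section. By TMM with regions set by distance, Atp2a2 was instead fitted lower in the outer spots of the E18.5 controls. That fit set the outer spots against the next band and not against the innermost spots. Whether the turn holds by TMM was not tested. Pvalb had ratios of 1.12 and 1.53 in the E18.5 controls, 2.10 in the CaV1.1 -/- section and 2.01 in the section labelled bCat cKO. The E14.5 CaV1.1 -/- section had 14 spots over 300 µm, fewer than any other.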

How the data were processed

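UMIs of 19465 genes were measured per capture spot in 8 diaphragm sections with a probe-based assay for fixed tissue (probe set v1.0). The deposited values are raw UMI counts per probe-targeted gene, which the authors made with Space Ranger (2.0.0 for E14.5 controls 1 and 2 and the E14.5 CaV1.1 -/- section, 2.0.1 for the others, per the submitters' processing notes) against mm10. The study's own tests ran over spots. Here spots with at least 1000 UMIs were kept, UMIs were summed per section over each class of spot, and the sums were fitted across all genes with edgeR 4.0.16 (filterByExpr, TMM, quasi-likelihood F test, R 4.3.3), with Benjamini-Hochberg adjustment over all genes tested and a threshold of 0.05. Muscle sums of the 8 sections were fitted by group (3 residual degrees of freedom), and region and fiber contrasts with section as a block. Muscle spots lay above the Otsu threshold (scikit-image 0.26.0) of the mean of 9 muscle genes per 10000 UMIs. Regions held 15% and fiber classes 25% of muscle spots. Genes that define a class were left out of the test between classes. The 9 muscle genes, Ryr1 among them, stayed in the tests of muscle sums, regions and fiber classes. Ryr1 is thus counted among the 7 release and coupling genes there, also on the scale that it helps to set. Wherever a value is given in CPM it is TMM-scaled, unless called raw. SEs are those of the log2 difference, and ± values without another name are SEs.

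Named genes were all 10 members, and from each of 4 lists of other calcium genes at most the 4 called genes with the largest difference in a comparison, other genes being named only for a stated reason (Ctnnb1, the class-defining genes, the neighbours of Strit1, Mrln in the bCat cKO section). The members and lists were chosen with earlier results of these data known. Of the 46 listed genes all 46 were in the files, and Calb1 did not pass the filter on low counts. Alternatives were DESeq2 1.42.0, no count filter, scaling to the 9 muscle genes, other definitions of muscle spots, regions and fiber classes, fits with and without blocks, and leaving out each control section. The pipeline was tested on simulated data. The depth of 14179161 to 82859104 UMIs per section covers counting error only. For muscle sums, p-values measure the spread between sections, which the labels do not tie to separate litters. With section as a block they measure the spread of differences within sections. Those fits had 3 residual degrees of freedom for muscle against other spots, 6 for regions and 3 for fiber classes. Their median prior degrees of freedom, borrowed across genes, were 4.31, 25.1 and 24.7.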

Additional observations from a re-analysis of the deposited data

Results flagged for a closer look

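For the 20 values below, the effect in 1 group of sections differed from that in another by a test of the difference itself, which is why they stand here. Each mutant is 1 section, and no explanation was weighed.

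The difference of Jph2 between CaV1.1 -/- and control muscle was more negative at E18.5 than at E14.5 (log2 -1.08 ± 0.18, adjusted p = 0.026), and Jph2 was lower in CaV1.1 -/- than in bCat cKO muscle at E18.5 (-0.92 ± 0.15, adjusted p = 0.014). The difference between center and periphery of Pvalb was more positive in the bCat cKO section than in the E18.5 controls (1.49 ± 0.11, adjusted p = 7.0e-10).

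The log2 difference of fast-rich from slow-rich spots was shifted upward from that of the E18.5 controls in the CaV1.1 -/- section for Sypl2 (0.91, adjusted p = 3.8e-05), Sln (0.73, 0.0005), Atp2a1 (0.71, 0.00065), Casq2 (0.65, 0.0019), Casq1 (0.57, 0.0098), Jph2 (0.54, 0.0099), Pvalb (0.53, 0.012), Trdn (0.49, 0.033) and Jph1 (0.43, 0.033). In the bCat cKO section it was shifted upward for Sln (0.75, 0.00035), Sypl2 (0.75, 0.00031), Atp2a1 (0.62, 0.0027), Casq1 (0.60, 0.0070), Casq2 (0.54, 0.0093), Atp2a2 (0.50, 0.023), Trdn (0.50, 0.028) and Jph1 (0.44, 0.013). For Atp2a2, which was lower in the fast-rich spots of the controls, the shift narrowed that deficit. Relative to the 9 muscle genes none of these passed, and those that turned direction are given with the processing.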

How the results depend on the processing

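Scaling to the 9 muscle genes moved the values most. In the comparisons of muscle sums and of fiber classes its fit found no spread of dispersion between genes (infinite prior degrees of freedom). For regions the median prior degrees of freedom were 3975. All p-values thus borrow fully, or nearly so, across genes under this scaling. It moved the median log2 difference of all genes to -3.19 for the stages, 0.56 and 1.40 for CaV1.1 -/- at E14.5 and E18.5, 0.52 for bCat cKO, 0.86 for the CaV1.1 -/- difference between stages and 0.89 for CaV1.1 -/- against bCat cKO, from within 0.02 of 0 by TMM, and the share of called genes that were higher from 50.7% to 1.47%, 25.6% to 96.8%, 41.1% to 99.2%, 36.1% to 94.0%, 34.7% to 98.9% and 39.3% to 97.4%. For center against periphery at E14.5 the median was at -0.14 (57.6% to 22.5% higher), for center and periphery against intermediate spots at 0.24 and 0.40 (34.2% to 99.1% and 36.4% to 97.5%), and for the center to periphery difference of the E14.5 CaV1.1 -/- section at 0.27 (50% to 97.2%) and of the bCat cKO section at 0.09 (50.9% to 67.7%). For fast-rich against slow-rich spots it was at -0.37 in controls, and at -0.72 and -0.51 for the difference of CaV1.1 -/- and bCat cKO (59.2% to 1.18%, 56.2% to 0.668% and 83.2% to 1.41%). The cause of the gap between the scalings was not tested.

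Members that turned direction under it and passed on at least 1 of the scalings were, between stages, Jph1 (-0.40), Jph2 (-1.43), Casq2 (-0.62), Atp2a2 (-2.61), Sln (-0.52) and Trdn (-0.047); in CaV1.1 -/- Atp2a2 at E14.5 (0.50) and at E18.5 Jph1 (0.69), Casq1 (0.43), Jph2 (0.034), Casq2 (0.024), Sypl2 (0.18), Atp2a1 (0.11), Sln (1.05), Trdn (0.69) and Pvalb (1.02). Casq1 turned in the stage difference of CaV1.1 -/- (0.75) and Sln between the mutants (0.83). In the center at E18.5 Casq1 (0.037), Jph2 (0.11), Casq2 (0.20), Sypl2 (0.015), Atp2a2 (0.12) and Sln (0.082) turned, and in the periphery Jph1 (0.24), Casq1 (0.095), Jph2 (0.13), Casq2 (0.14), Trdn (0.077) and Pvalb (0.18). In fast-rich spots Jph1 (-0.016), Jph2 (-0.20), Casq2 (-0.25), Sln (-0.15) and Trdn (-0.043) turned. The shift toward fast-rich spots in the mutants did so for Jph1 (-0.29), Casq1 (-0.14), Jph2 (-0.18), Casq2 (-0.061), Atp2a1 (-0.0026), Trdn (-0.22) and Pvalb (-0.18) in CaV1.1 -/-, and for Jph1 (-0.090), Atp2a2 (-0.036) and Trdn (-0.035) in bCat cKO. Other members turned without passing on either scaling, in CaV1.1 -/- at E14.5, in bCat cKO, in the stage difference of CaV1.1 -/-, between the mutants, in the center to periphery differences of the E14.5 CaV1.1 -/- and the bCat cKO sections and in the shift toward fast-rich spots. With regions by distance Jph1 (0.30) and Trdn (0.44) turned at E14.5, Jph1 (0.18), Casq1 (0.24), Jph2 (0.19), Sypl2 (0.30), Atp2a1 (0.36), Sln (0.37), Trdn (0.28) and Pvalb (0.33) in the inner spots at E18.5, and Atp2a2 (-0.18) in the outer spots. Regions by distance hold other spots than regions by marker genes.

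Counts of called members moved as follows. For CaV1.1 -/- at E14.5 the count of 1 was 3 with DESeq2, 2 without the count filter, 2 by muscle genes, 3 with all kept spots above the median muscle score as muscle, 5 with all kept spots, and 0 to 3 without single controls. For bCat cKO the count of 0 was 3 with DESeq2, 1 by muscle genes, 1 with the higher-scoring spots, 2 with all kept spots and 0 to 4 without single controls. For the CaV1.1 -/- difference between stages the count of 1 was 2 without the filter, 6 by muscle genes and 0 to 3 without single controls, and between the mutants 3 with DESeq2, 2 without the filter, 3 by muscle genes and 1 to 6 without single controls. Center against periphery at E14.5 went from 8 to 5 without the section block. Center against intermediate spots went from 9 to 5 with DESeq2, 2 by muscle genes, 0 without the section block, 5 with regions of 10% and 4 to 9 without single controls, and periphery against intermediate spots from 10 to 4 by muscle genes, 4 with the higher-scoring spots and 1 without the section block. The center to periphery difference of the mutants went from 0 to 1 without the filter and 1 with the higher-scoring spots in CaV1.1 -/- at E14.5, from 0 to 2 with the higher-scoring spots at E18.5, and from 1 to 0 in bCat cKO without the section block or with regions by distance. Fast-rich against slow-rich spots went from 9 to 5 with DESeq2, 3 by muscle genes, 4 with the higher-scoring spots, 0 without the section block and 5 to 9 without single controls. The shift in the mutants went from 9 to 4 with DESeq2, 0 by muscle genes, 0 without the section block, 5 with classes of 10% of spots and 5 to 9 without single controls in CaV1.1 -/-, and from 8 to 3, 0, 0, 2 and 3 to 8 in bCat cKO. Over all 2120 values of a member under an alternative, 1828 kept their direction and side of the threshold, 183 lost and 53 gained a call, and 56 turned direction.

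Replicate numbers are shared by the E14.5 and E18.5 controls, and the main fit did not pair them. The deviations of same-numbered sections from their group means correlated at -0.10 and -0.17 over 9798 genes. With 2 E18.5 controls their deviations mirror each other, so these values do not settle whether the numbers pair sections. With the replicate block, 10 members were called between stages, 0 in CaV1.1 -/- at E14.5, 5 at E18.5, 0 in bCat cKO, 0 for the difference between stages and 0 between the mutants. The labels name no other pairing. The crossed pairing was not run. With 1 section per mutant and 2 or 3 controls, some differences of more than 2 SEs did not pass, and Pvalb at E14.5 rests on at most 115 UMIs per section.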

Other observations

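At E14.5 the ranking of muscle spots by fast minus slow genes gave another picture by TMM than at E18.5. Atp2a1 was at 1102, 654 and 807 CPM in the fast-rich spots of the 3 controls and at 1291, 886 and 973 CPM in the slow-rich spots, and Casq2 at 497, 320 and 344 CPM against 739, 485 and 442 CPM. In these sections the 9 muscle genes had fast-rich to slow-rich ratios of 0.76, 0.68 and 0.81, and erythrocyte genes ratios of 1.85, 1.55 and 2.70. Scaling to these 9 genes moved the median log2 difference of all genes in this contrast from 0.003 to 0.498. The directions by TMM may therefore not hold on that scale, and the member values on it are not given here. The part of the muscle genes or of the erythrocyte genes in the difference was not tested.

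In the bCat cKO section the contrast between muscle and other spots (TMM-scaled) was high for most members. Atp2a1 was 10.9-fold higher in muscle spots than in other spots, against 4.44-fold and 7.27-fold in the E18.5 controls, and Casq1 11.2-fold against 4.16-fold and 7.08-fold. Atp2a2 went the other way, with 1.80-fold against 2.14-fold and 2.78-fold, as did Jph2, with 2.97-fold against 3.70-fold and 5.67-fold. These differences between sections were not tested.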
